A study of Drosophila melanogaster with 13 samples.

Results

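The effect of losing *trr* was set against the effect of losing *G9a*, gene by gene, in messenger RNA of adult *Drosophila melanogaster* heads. The comparison used the 10 RNA-seq libraries among the 13 samples of the series, and 12871 of the 15682 genes in the count files were tested, those whose counts across all 10 libraries came to 10 or more. For each gene the *trr* effect (knockdown over control) and the *G9a* effect (mutant over control) were estimated as log2 fold changes in 1 model of 4 groups, and the *G9a* effect was subtracted from the *trr* effect. A positive difference therefore means that a gene lay higher, relative to its own control, in *trr* knockdown than in *G9a* mutants. All flies were 0 to 5 days old by the labels. The study's methods give a slightly narrower range of ages. The 2 *trr* knockdown libraries came from flies with Elav-Gal4 / +, dicer2 / + and the hairpin P{TRiP.HMS01019}attP2 / +, and the 2 *trr* control libraries from flies with the same driver and dicer2 but the empty landing site P{y[+t7.7]=CaryP}attP2 / +. The 3 *G9a* mutant libraries carried the G9aDD1 allele, and the 3 *G9a* control libraries are labelled G9a+/+. The study's methods describe the controls as a precise excision line. Elav-Gal4 drives the hairpin in neurons, while whole heads were sequenced, so cells other than neurons are part of each knockdown library, whereas the *G9a* allele acts in every cell. Each library was made from pooled heads, and the sources used here do not state how the sexes were divided. The flies of both experiments differ in genetic background, and each experiment has its own controls, so experiment, background and processing batch cannot be told apart wherever levels of the experiments are set side by side. The difference of effects compares each genotype with its own control only.

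Both genes encode histone methyltransferases. Trr belongs to the KMT2C and KMT2D family, which methylates lysine 4 of histone H3, a mark of active enhancers and promoters, and it acts as a co-activator of the ecdysone receptor. G9a, the fly ortholog of mammalian EHMT1 and EHMT2, dimethylates lysine 9 of histone H3, a mark mostly linked to repression. In flies both have roles in learning and memory, and loss of their human orthologs is linked to related neurodevelopmental syndromes. The question put to the data was which genes respond to both losses alike, which respond to 1 of them, and which respond in opposite directions.

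Reads counted on genes ranged from 18114408 to 28171883 per library, and between 10.4% and 11.6% of aligned reads lay outside genes in the *trr* experiment, against 13.5% to 19.8% in the *G9a* experiment. Levels are given as CPM, a gene's counts scaled to library size after TMM normalization. The 8 photoreceptor markers, which identify heads, summed to between 55959 and 98637 CPM in all libraries. *G9a* control replicate 3 stood apart in 9 midgut protease genes, whose summed level was 89.8 CPM there and at most 5.21 CPM elsewhere. *G9a* mutant replicate 3 stood apart in 7 testis and accessory gland genes, with 77.3 CPM against at most 10.1 CPM elsewhere, and no gene of either list was called in the difference by edgeR or DESeq2, although 7 of the 9 midgut genes had an unadjusted p under 0.05 in edgeR, and 4 were called with the replicate block in the *G9a* experiment. The male dosage compensation RNAs *lncRNA:roX1* and *lncRNA:roX2* were both called on the negative side of the difference (-0.87, adjusted p = 0.022, and -1.27, adjusted p = 0.0354), with summed levels of 2259 and 2446 CPM in *trr* controls, 1845 and 1995 in knockdown, 662 to 872 in *G9a* controls and 1041 to 1332 in mutants. The part of these markers in the results below was not tested.

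Counts of *trr* and of *G9a* did not fall in the libraries that the labels assign to knockdown or mutant. *trr* (FBgn0023518) had 75.3 and 99.2 CPM in the *trr* controls and 99.3 and 89.9 CPM in the libraries labelled *trr* knockdown, so the groups overlapped. *G9a* (FBgn0040372) had 59.7, 55.0 and 49.1 CPM in its controls and 73.1, 65.05 and 58.7 CPM in the libraries labelled *G9a* mutant, which overlapped as well. The *trr* effect on *trr* was 0.12 and the *G9a* effect on *G9a* was 0.26, neither of them called. The deposited counts thus do not check the labels, and every direction below rests on them.

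Genes whose response differed between the experiments were common. The difference was called, with an edgeR adjusted p under 0.05 and a size over 1.5-fold, for 1192 genes (9.26%), 707 of them on the positive side (5.49%) and 485 on the negative side (3.77%). The median difference over all genes was -0.06 and the median standard error 0.28 on the log2 scale. Another 77 genes passed the adjusted p but not 1.5-fold, and 195 of the called genes exceeded 4-fold, 134 of them positive. In the same model the *trr* effect was called for 246 genes (1.91%), 78 up (0.606%) and 168 down (1.31%). The *G9a* effect was called for 1098 genes (8.53%), 317 up (2.46%) and 781 down (6.07%). The called differences therefore carried mostly the *G9a* effect, which was the larger in size for 772 genes, against 420 with the larger *trr* effect. Of the 1192 genes, 574 had only the *G9a* effect called (48.2%), 159 only the *trr* effect (13.3%), 35 both effects in opposite directions (2.94%), 5 both in the same direction with different size, and 419 neither effect on its own (35.2%).

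**Figure D1:**
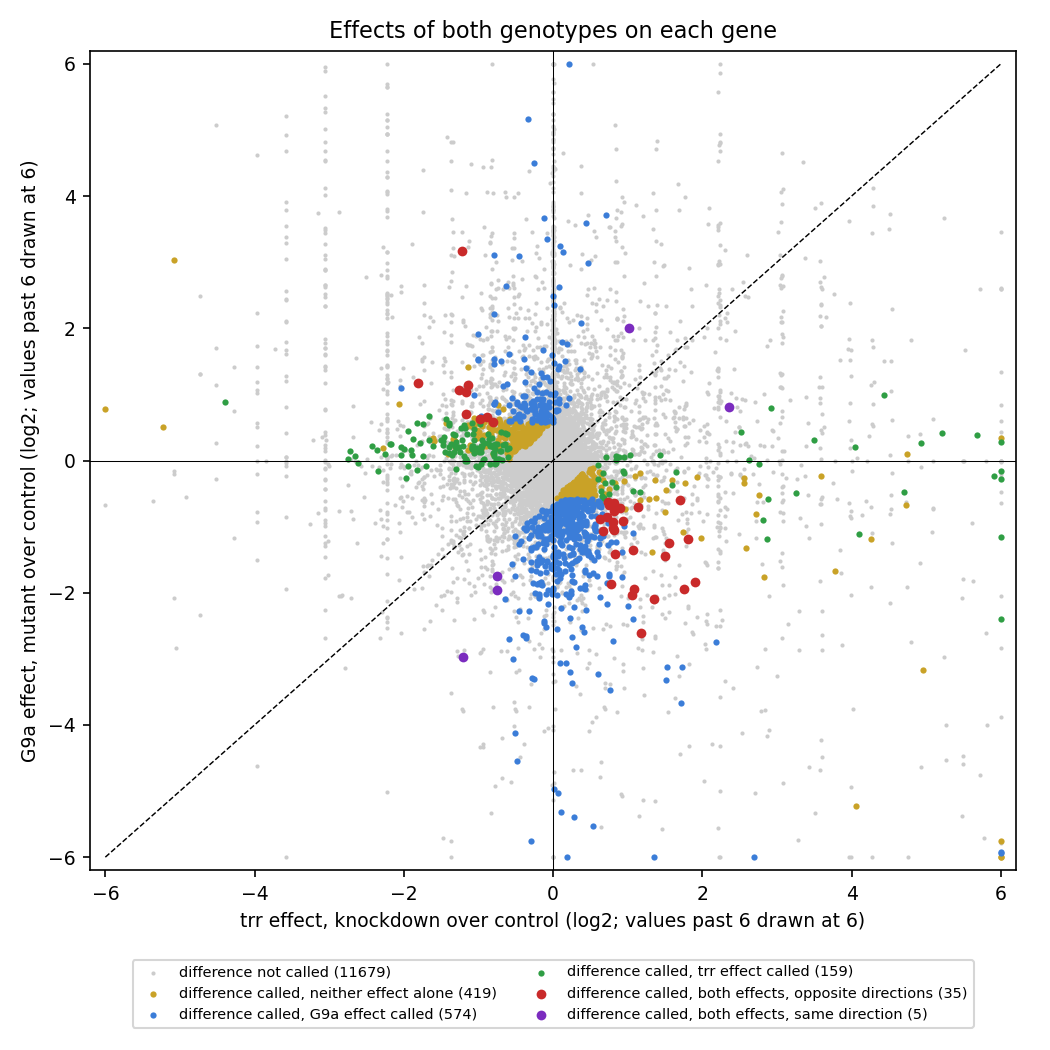
The *trr* effect of each of 12871 genes (horizontal axis, log2) against its *G9a* effect (vertical axis, log2), 1 point per gene, with colours for the 5 patterns of a called difference and grey for genes not called; the dashed line marks equal effects, and values past 6 are drawn at 6. The 574 genes with only a *G9a* effect spread along the vertical axis, and the 159 with only a *trr* effect along the horizontal axis. The 35 opposite genes lie in the upper left and lower right quadrants. The stripes of grey points are genes with few counts.

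Among single libraries left out, those of *trr*, of which there are only 2 a group, moved the number of called genes most. Without *trr* knockdown replicate 1 there were 377 calls, without replicate 2 there were 497, without *trr* control replicate 1 there were 721 and without *trr* control replicate 2 there were 1596, while leaving out a *G9a* library gave 875 to 1221. The stricter glmTreat test of edgeR, against 1.5-fold, gave 323 calls with all libraries. None of the 1192 genes changed its sign without any 1 library. glmTreat used the fold changes of the main fit, so no sign could change there.

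Opposite responses were found in 35 genes (0.272% of genes tested). 26 of them rose in *trr* knockdown and fell in *G9a* mutants, and 9 fell in *trr* knockdown and rose in *G9a* mutants. The difference of all 35 stayed called under each of the alternative settings and without any 1 library. Their separate effects did not all keep their call. Without *trr* control replicate 1 the *trr* effect remained called in 3 of the 35, and without either knockdown replicate in 2, whereas the *G9a* effect remained called in 28 to 35 without any 1 library. With glmTreat the *trr* effect remained called in 2 and the *G9a* effect in 15, and with the replicate block in the *G9a* experiment in 29 and 34. In bulk libraries of whole heads, fewer cells of a type and less RNA per cell cannot be told apart, here and below.

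The largest positive difference among the opposite genes was that of *scra* (FBgn0261385), which encodes anillin, a scaffold protein of the cytokinetic ring. *scra* had 5.48 and 4.94 CPM in *trr* controls, 10.5 and 13.1 in knockdown, 14.9, 14.6 and 12.8 in *G9a* controls and 2.78, 1.95 and 2.20 in mutants. The *trr* groups did not overlap, as in 52.9% of all genes, nor did the *G9a* groups, as in 30.8%, and the mutants were the lowest of all libraries. The effects were 1.18 ± 0.19 (SE, n = 2 and 2) and -2.61 ± 0.17 (SE, n = 3 and 3), and the difference was 3.79 ± 0.26 (95% interval 3.22 to 4.36, edgeR adjusted p = 2.03e-05). The *trr* effect on *scra* was not called without *trr* control replicate 1 (adjusted p = 0.107) or without knockdown replicate 1 or 2 (adjusted p = 0.174 and 0.187).

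*CG7214* (FBgn0031940) had 11.3 and 10.2 CPM in *trr* controls, 42.3 and 38.2 in knockdown, 968, 953 and 1024 in *G9a* controls and 303, 262 and 255 in mutants. It rose nearly as much in 1 experiment (1.91 ± 0.13) as it fell in the other (-1.84 ± 0.10), and the difference was 3.75 ± 0.16 (adjusted p = 1.27e-06). Its level in both *trr* groups was far under that in both *G9a* groups. Each effect on *CG7214* stayed called without any 1 library.

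*Cyp6a2* (FBgn0000473), a cytochrome P450 known for the metabolism of insecticides, had 42.3 and 49.5 CPM in *trr* controls, 116 and 119 in knockdown, 114, 105 and 98.1 in *G9a* controls and 23.5, 24.9 and 25.9 in mutants. Knockdown libraries thus reached the level of the *G9a* controls, and the mutants fell under the *trr* controls. The difference was 3.45 ± 0.15 (adjusted p = 1.27e-06), from a *trr* effect of 1.36 and a *G9a* effect of -2.09, both called without any 1 library. *Cyp6a2* overlaps *Epac*, and reads that could not be assigned to only 1 of them were left out of the counts.

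3 further genes completed the 6 with the largest positive difference. *CG9733* (FBgn0039759) had 3.26 and 4.41 CPM in *trr* controls, 12.99 and 13.02 in knockdown, 11.6, 11.9 and 15.0 in *G9a* controls and 2.73, 2.74 and 4.47 in mutants, a difference of 3.71 ± 0.34. *FBgn0261362*, which has no symbol in the table used, had 47.8 and 46.3 CPM in *trr* controls, 98.6 and 97.5 in knockdown, 7.46, 6.70 and 6.36 in *G9a* controls and 1.77, 1.95 and 1.29 in mutants, a difference of 3.09 ± 0.21. *CG11741* (FBgn0040531) had 11.1 and 9.89 CPM in *trr* controls, 22.9 and 21.4 in knockdown, 7.13, 7.29 and 10.6 in *G9a* controls and 1.96, 2.40 and 2.12 in mutants, a difference of 3.02 ± 0.27. Their groups were separate in both experiments by the rule that picked them. The edgeR adjusted p of the difference was 0.000167 for *CG9733*, 2.03e-05 for *FBgn0261362* and 0.000143 for *CG11741*. Their *trr* effects of 1.76, 1.06 and 1.08 were not called without *trr* control replicate 1 or without either knockdown replicate (adjusted p between 0.067 and 0.354).

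Of the genes that went the other way, *CG5653* (FBgn0035943) had the largest difference. It had 1.496 and 1.30 CPM in *trr* controls, 0.524 and 0.675 in knockdown, 8.51, 10.3 and 10.5 in *G9a* controls and 100.5, 84.6 and 78.7 in mutants. Its rise in *G9a* mutants (3.17 ± 0.14, adjusted p = 5.24e-07) made up most of the difference of -4.39 ± 0.29 (adjusted p = 2.03e-05), while its fall in *trr* knockdown (-1.22 ± 0.26, adjusted p = 0.045) was not called with the replicate block in the *G9a* experiment (adjusted p = 0.0753), with voom, or without any of *G9a* control replicates 2 and 3, *G9a* mutant replicate 2, *trr* control replicate 1 and both knockdown replicates (adjusted p between 0.0608 and 0.442).

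*NLaz* (FBgn0053126), a lipocalin of the apolipoprotein D kind with a role in stress resistance, had 31.8 and 10.04 CPM in *trr* controls, 5.73 and 6.23 in knockdown, 15.0, 13.6 and 13.9 in *G9a* controls and 33.6, 34.2 and 27.7 in mutants. The *trr* controls were unlike each other, replicate 1 being at the level of the *G9a* mutants and replicate 2 near the knockdown libraries. The difference was -2.97 ± 0.51 (adjusted p = 0.0052) and stayed called in all fits, at -1.92 to -3.58. The *trr* effect of *NLaz* was -0.75 without *trr* control replicate 1, and it was not called without any 1 library other than *trr* control replicate 2 and *G9a* mutant replicate 3 (adjusted p between 0.0586 and 0.447) or with the replicate block in the *G9a* experiment (0.0718). The *G9a* effect of *NLaz* was not called without any 1 of the *G9a* controls, *G9a* mutant replicates 1 and 2 and both knockdown replicates (adjusted p between 0.0557 and 0.0967).

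The remaining 4 of the 6 largest negative differences had smaller effects. *CG18467* (FBgn0034218), which overlaps *EDTP*, had 40.3 and 33.7 CPM in *trr* controls, 15.9 and 15.0 in knockdown, 34.6, 54.1 and 47.7 in *G9a* controls and 93.7, 97.2 and 96.4 in mutants, a difference of -2.34 ± 0.23. *Amnionless* (FBgn0025686), which overlaps *CG3625* and whose product works with Cubilin in protein uptake by nephrocytes, had 4.41 and 5.17 CPM in *trr* controls, 1.65 and 2.70 in knockdown, 5.16, 5.38 and 5.30 in *G9a* controls and 9.97, 13.1 and 11.7 in mutants, a difference of -2.28 ± 0.31. In both genes the controls of the experiments were near each other and the knockdown and mutant libraries lay on either side. The noncoding RNA *lncRNA:CR42861* had 19.8 and 18.7 CPM in *trr* controls, 6.74 and 10.4 in knockdown, 7.63, 8.38 and 9.33 in *G9a* controls and 16.6, 19.4 and 15.8 in mutants, a difference of -2.20 ± 0.26. *CG30054* had 59.6 and 30.0 CPM in *trr* controls, 19.7 and 20.01 in knockdown, 32.8, 30.6 and 27.7 in *G9a* controls and 55.0, 42.8 and 50.2 in mutants, a difference of -1.87 ± 0.33 (adjusted p = 0.00633). With the replicate block in the *G9a* experiment the *trr* effects of *Amnionless* and *CG30054* had adjusted p-values of 0.0605 and 0.0639, and the *G9a* effect of *CG30054* had one of 0.06, while the differences stayed called. The *trr* effects of *CG18467* and *lncRNA:CR42861* were not called without *trr* control replicate 1 or either knockdown replicate (adjusted p between 0.0503 and 0.277). The *trr* effect of *Amnionless* was not called without any 1 library but *G9a* mutant replicate 3 (0.0545 to 0.44). For *CG30054* the *trr* effect was not called without any 1 library but that one and *trr* control replicate 2 (0.0537 to 0.435), and the *G9a* effect without any 1 library but the *trr* controls (0.0605 to 0.138).

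**Figure D2:**
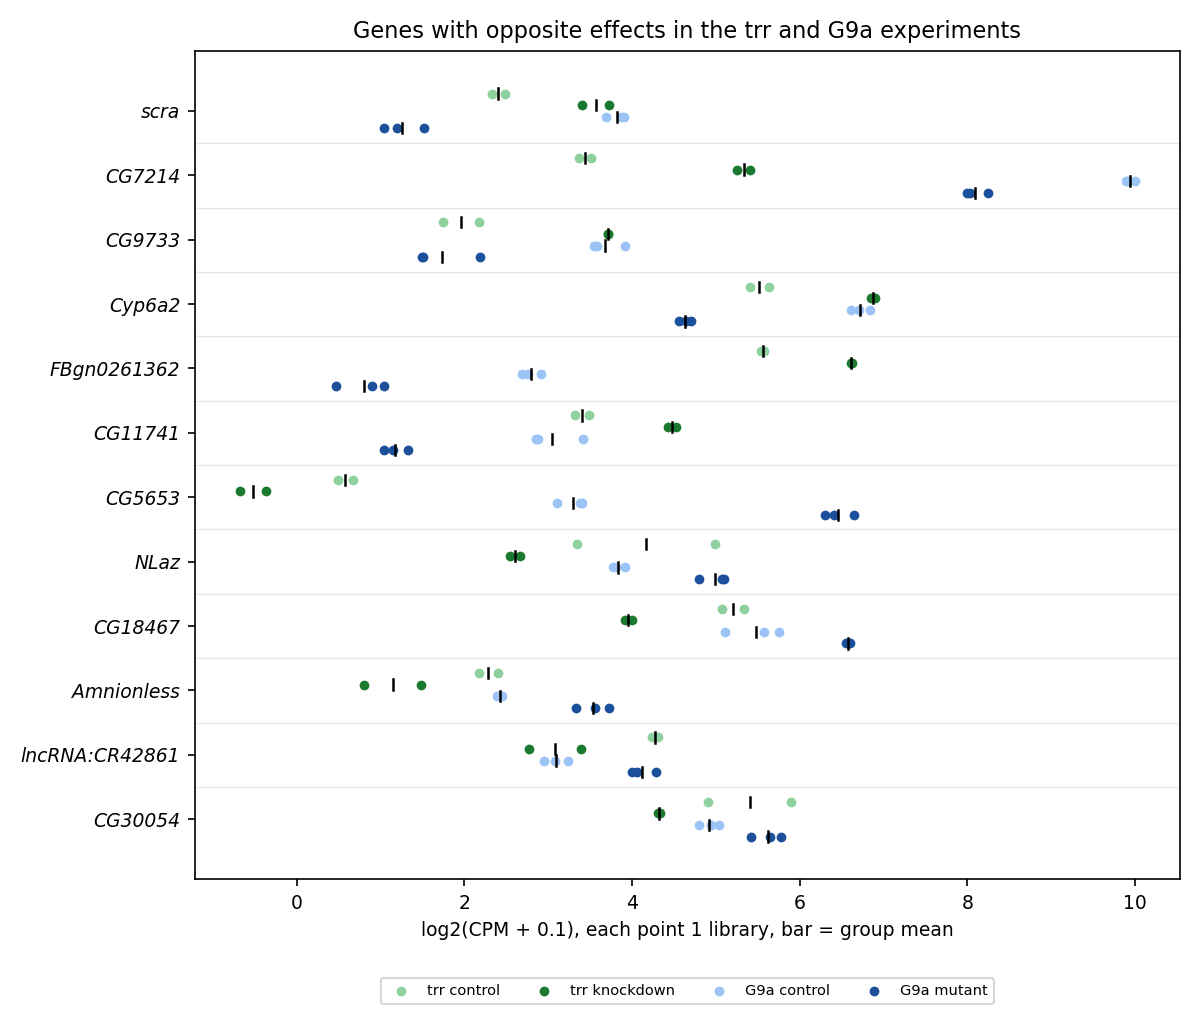
Levels of 12 genes with opposite effects as log2(CPM + 0.1) on the horizontal axis, 1 gene per band, 1 point per library, coloured by group, with a bar at the group mean. In the upper 6 genes, from *scra* to *CG11741*, both knockdown libraries lie right of both *trr* controls and the 3 mutants lie left of the 3 *G9a* controls. In the lower 6, from *CG5653* to *CG30054*, the order is reversed, with the *trr* controls of *NLaz* and *CG30054* far apart. The genes were picked with separate groups in both experiments.

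In the basement membrane, the sheet of collagen IV, laminin and associated proteins around tissues, 7 of 12 measured genes were called (58.3%). All 7 were on the positive side, against 5.49% of all genes. The median difference of the 12 was 0.99, against -0.06 for all genes. Of these, *Col4a1*, *vkg* and *Ppn* were opposite genes, with both effects called. *Col4a1*, which encodes a collagen IV chain, had 479.7 and 550.4 CPM in *trr* controls, 904 and 891 in knockdown, 862, 697 and 649.9 in *G9a* controls and 435, 308 and 350.0 in mutants. *vkg*, the partner chain of collagen IV, had 355 and 435 CPM in *trr* controls, 718 and 673 in knockdown, 659.7, 504 and 474 in *G9a* controls and 292, 226.9 and 271 in mutants. Both chains had separate groups in both experiments and nearly equal differences, 1.82 ± 0.23 for *Col4a1* and 1.87 ± 0.23 for *vkg* (edgeR adjusted p = 0.000931 and 0.000823).

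*Ppn*, which encodes the matrix protein papilin, had 263 and 238 CPM in *trr* controls, 444 and 418 in knockdown, 266, 219 and 219 in *G9a* controls and 63.7, 70.7 and 58.5 in mutants. Its fall in mutants (-1.87) was larger than its rise in knockdown (0.78), and the difference was 2.65 ± 0.17 (adjusted p = 2.03e-05). *LanA* (2.05), a laminin chain, *Tig* (1.52), tiggrin, and *SPARC* (1.32), a collagen-binding protein, were called in the difference with a called *G9a* effect only, and the laminin chain *LanB1* (0.67) with neither effect called. The proteases *Mmp1* and *Mmp2*, the peroxidase *Pxn*, nidogen (*Ndg*) and *Timp* were not called, *Mmp1* except with the replicate block in the *G9a* experiment (adjusted p = 0.0492). Without any 1 library 6 or 7 of the 12 were called, and 6 with the stricter glmTreat test, so no library decided the count. Among 5 haemocyte markers, from cells that secrete basement membrane, *Hml* and *NimC1* were also called on the positive side. *Hml*, haemolectin, had 57.7 and 35.99 CPM in *trr* controls, 63.0 and 64.4 in knockdown, 52.1, 29.9 and 28.8 in *G9a* controls and 8.63, 8.07 and 6.52 in mutants. The haemocyte markers summed to 226 and 235 CPM in *trr* controls, 282 and 304 in knockdown, 207 to 241 in *G9a* controls and 180 to 225 in mutants, with *He* under 0.75 CPM in every library. Their part in the basement membrane result was not tested.

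Other opposite genes were named after their values were seen. *Gnmt*, which overlaps *CG43630* and encodes the glycine N-methyltransferase that consumes the methyl donor S-adenosylmethionine, had 13.4 and 8.20 CPM in *trr* controls, 31.0 and 30.2 in knockdown, 25.0, 22.2 and 30.1 in *G9a* controls and 9.39, 10.03 and 8.99 in mutants, a difference of 2.95. *regucalcin*, which overlaps *Chrac-16* and encodes a protein of the SMP30 family, had 374 and 437 CPM in *trr* controls, 740.2 and 702 in knockdown, 219.6, 186 and 195 in *G9a* controls and 81.9, 67.2 and 77.2 in mutants, a difference of 2.24. In both genes the knockdown libraries and the mutants fell outside the range of their controls. The chitin deacetylases *verm* and *serp* differed by 1.57 and 1.42, and *Crys*, the gene of the lens protein drosocrystallin, by 1.83. On the negative side, *HP4*, a heterochromatin protein, had 12.96 and 11 CPM in *trr* controls, 5.69 and 6.51 in knockdown, 7.13, 6.52 and 7.24 in *G9a* controls and 10.2, 11.7 and 10.2 in mutants, a difference of -1.59 (adjusted p = 0.00117).

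*PCB*, *mTTF* and *Arc1*, which the study discusses for both losses, were opposite as well. *PCB*, pyruvate carboxylase, which starts gluconeogenesis, had 478 and 555 CPM in *trr* controls, 877 and 831 in knockdown, 544, 469.6 and 492 in *G9a* controls and 266, 292 and 277 in mutants. Its effects of 0.73 and -0.85 gave a difference of 1.58 ± 0.15 (adjusted p = 0.00019). *mTTF*, a mitochondrial transcription factor, had 11.4 and 8.47 CPM in *trr* controls, 5.36 and 5.44 in knockdown, 6.75, 6.38 and 7.97 in *G9a* controls and 10.2, 11.8 and 11.2 in mutants, a difference of -1.53 ± 0.24 (adjusted p = 0.00316). *Arc1*, an activity-regulated gene whose protein forms capsids that carry RNA between cells, had 55.4 and 63.4 CPM in *trr* controls, 115 and 107 in knockdown, 214, 189 and 257 in *G9a* controls and 140.0, 116 and 144 in mutants. *Arc1* thus rose in knockdown (0.90) and fell in mutants (-0.72), with a difference of 1.62 ± 0.20 (adjusted p = 0.00097). The *trr* effects of *PCB* and *Arc1* were not called without *trr* control replicate 1 or either knockdown replicate (adjusted p between 0.131 and 0.29). That of *mTTF* was not called without these libraries (0.254 to 0.429), with the replicate block in the *G9a* experiment (0.0623) or without *G9a* control replicates 2 or 3 or mutant replicates 1 or 2 (0.0557 to 0.0657). The *G9a* effect of *mTTF* was not called without *G9a* control replicate 2 (adjusted p = 0.0632) or mutant replicate 2 (0.0608).

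Fatty acid beta-oxidation, the mitochondrial and peroxisomal breakdown of fatty acids, held the largest share of called members among the 23 lists. 14 of 20 enzymes (70%) were called, all on the positive side, against 5.49% of all genes, with a median difference of 0.80. The median *trr* effect of the 20 was 0.16 and the median *G9a* effect -0.60. A called fall in *G9a* mutants was found in 10 of them, against 6.07% of all genes. None had a called *trr* effect, against 1.91% of all genes. *CPT2*, which completes the transfer of fatty acids into mitochondria, had 31.6 and 28.3 CPM in *trr* controls, 26.0 and 26.2 in knockdown, 19.8, 20.7 and 20.7 in *G9a* controls and 8.91, 10.2 and 8.45 in mutants. Only the mutants were far under their controls, and the difference was 0.95 ± 0.17 (adjusted p = 0.00691). *Mcad*, the medium-chain acyl-CoA dehydrogenase, had 332 and 472 CPM in *trr* controls, 528 and 488 in knockdown, 133, 145 and 138 in *G9a* controls and 70.0, 80.7 and 85.0 in mutants, a difference of 1.16 ± 0.20 (adjusted p = 0.00601).

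Other called enzymes cover the steps of the pathway. They included *scu* (1.07), *yip2* (1.01), the thiolase, *Mtpalpha* (0.97) and *Mtpbeta* (0.80) of the trifunctional protein, *Echs1* (0.79), the acyl-CoA dehydrogenases *Arc42* (0.82), *CG4860* (1.32) and *CG9547* (1.46), the acyl-CoA oxidase *Acox3* (0.71), the peroxisomal *Mfe2* (0.70), and *CG4586* (1.25). *whd*, the carnitine palmitoyltransferase at the entry, was not called, with effects of -0.43 and -0.56 and a difference of 0.14. 7 enzymes were called without knockdown replicate 1, 8 without knockdown replicate 2, 10 to 14 without any other 1 library, and 3 with glmTreat. The fat body, the main fat store, is present in heads, and its 8 markers summed to 9753 and 7822 CPM in *trr* controls, 5657 and 5826 in knockdown, 3938, 3163 and 7523 in *G9a* controls and 2467, 2175 and 3150 in mutants. Of these markers *Lsp2* (1.31) and *to* (3.01) were called in the difference, *Fbp1* and *Fbp2* were at or under 1.68 CPM in every library, and the yolk protein genes *Yp1*, *Yp2* and *Yp3* were not called. The part of fat body in the beta-oxidation result was not tested.

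**Figure D3:**
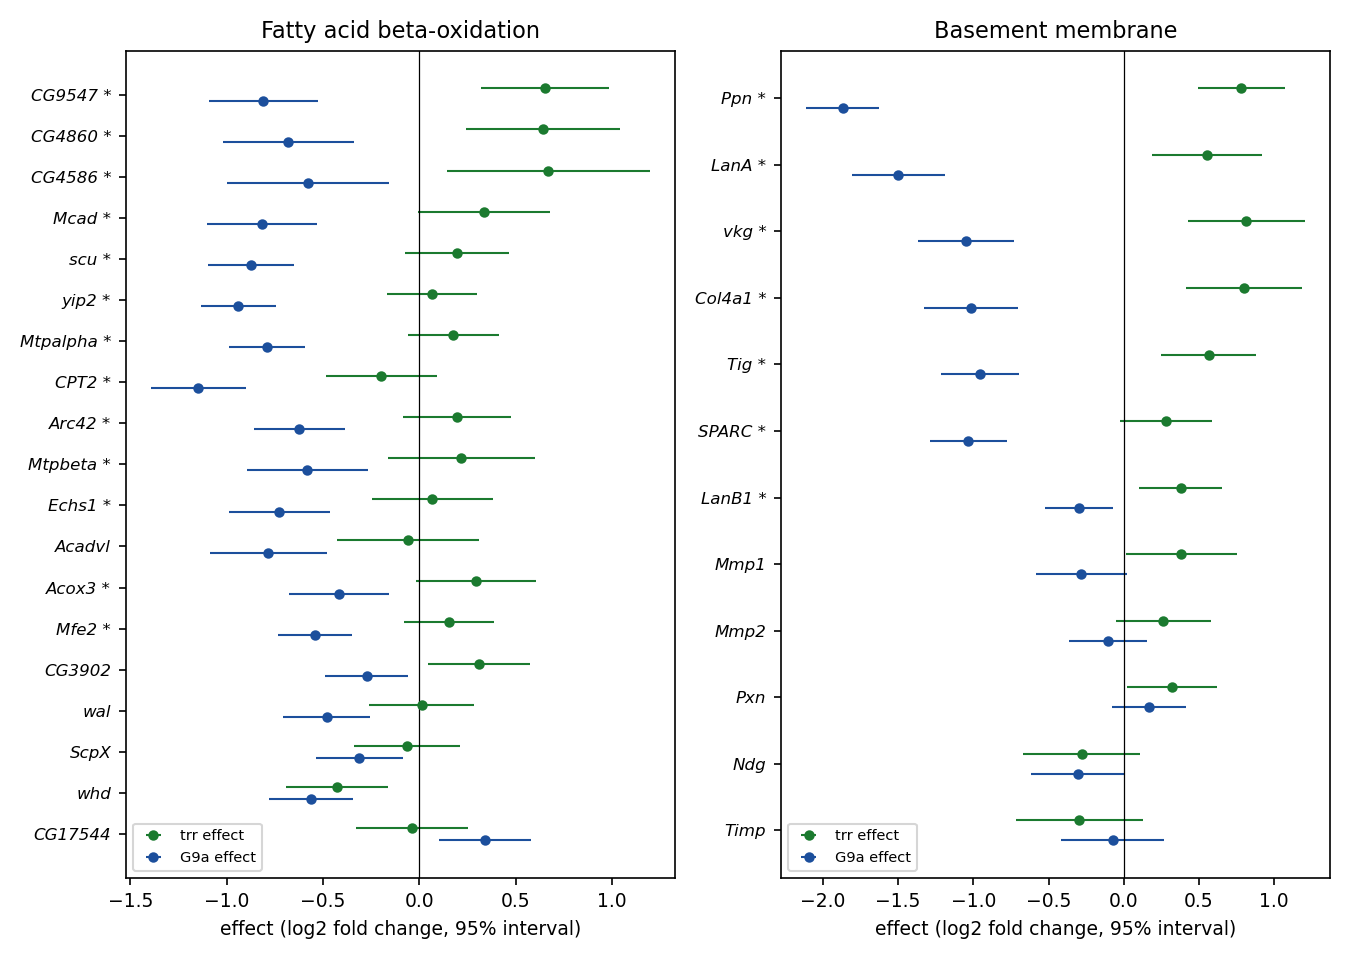
*trr* effects and *G9a* effects (log2 fold change with 95% intervals, horizontal axis) of 19 of the beta-oxidation enzymes (left) and 12 basement membrane genes (right), 1 gene per band and ordered by difference; a star marks a called difference. The *G9a* effects of 13 starred enzymes lie under 0 with *trr* effects near or above 0, and *Ppn*, *vkg* and *Col4a1* have intervals on either side of 0.

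Related metabolic lists moved the same way in part. Of 13 enzymes of gluconeogenesis and glycolysis 4 were called (30.8%), all positive, against 5.49% of all genes. The median was 0.40, and the 4 were *PCB*, *Pepck1* (1.21), *Pepck2* (1.76) and *Gapdh1* (0.73). *Pepck1*, a phosphoenolpyruvate carboxykinase of gluconeogenesis, had 1498 and 1777 CPM in *trr* controls, 1672 and 1597 in knockdown, 442, 447 and 403 in *G9a* controls and 201, 191 and 167 in mutants, so only the mutants left the range of their controls. Without *trr* control replicate 2, 7 of the 13 were called, and 3 or 4 without any other 1 library. Of 19 measured genes of lipid storage, synthesis and transport 6 were called (31.6%), all positive, against 5.49% of all genes. They were the desaturase *Desat1* (1.18), *Apoltp* (0.90), the perilipins *Lsd-1* (0.81) and *Lsd-2* (0.80), acetyl-CoA carboxylase *ACC* (0.81) and the adipokinetic hormone receptor *AkhR* (0.69). Each had a called fall in *G9a* mutants and no called *trr* effect. *Desat1* had 3563 and 3416 CPM in *trr* controls, 3233 and 3316 in knockdown, 1349, 1148 and 1262 in *G9a* controls and 586, 514 and 460.1 in mutants. 2 and 3 of the lipid genes were called without knockdown replicates 1 and 2, 4 to 7 without any other 1 library, and 1 with glmTreat. In contrast, 0 of 26 subunits of the respiratory chain and ATP synthase were called by edgeR, DESeq2 or voom, 2 had an unadjusted p under 0.05, and the median was 0.05.

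Among detoxification genes, as over all genes, more had a called *G9a* effect than a called *trr* effect. Of 82 cytochrome P450 genes 18 were called (21.95%, against 9.26% of all genes). Of these, 16 were positive and 2 negative, against 5.49% and 3.77% of all genes. The median difference was 0.48 (0.43 with groups at or under 3 counts per library set to that floor). 29 of the 82 had a called fall in *G9a* mutants, against 6.07% of all genes, and 3 in *trr* knockdown, against 1.31% of all genes. *Cyp28a5* had 53.3 and 52.2 CPM in *trr* controls, 65.7 and 61.9 in knockdown, 41.2, 30.1 and 25.2 in *G9a* controls and 0.671, 0.864 and 0.720 in mutants. All 3 mutants were far under every other library, and the difference was 5.67 ± 0.29 (adjusted p = 3.3e-06). *Cyp28d1* (2.32), *Cyp309a1* (2.32), *Cyp309a2* (2.12), *Cyp4d1* (2.08) and *Cyp6w1* (1.75) followed, each with a called *G9a* effect and no called *trr* effect. *Cyp6t3* (-2.54) and *Cyp6g2* (-1.67) were the 2 negative members, both with a called rise in mutants. 14 to 19 P450 genes were called without any 1 library, and 12 with glmTreat.

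The glutathione S-transferases, which couple toxic compounds to glutathione, were divided. 8 of 34 were called (23.5%, against 9.26% of all genes). *GstE7* (2.11), *GstE6* (1.66) and *GstE9* (1.59) were on the positive side with a called fall in mutants. *GstE3* (-1.70), *GstD11* (-1.65), *GstE13* (-1.50), *GstE14* (-1.36) and *GstO3* (-0.61) were on the negative side. *GstE13* had 16.1 and 9.12 CPM in *trr* controls, 4.57 and 5.04 in knockdown, 19.9, 20.05 and 22.8 in *G9a* controls and 23.8, 20.3 and 23.8 in mutants, and *GstE3* fell likewise in knockdown only. The difference of *GstE3* was not called with the replicate block in the *G9a* experiment (adjusted p = 0.0568). The list lost its calls with the *trr* libraries, with 0 and 1 left without knockdown replicates 1 and 2 and 5 without *trr* control replicate 1, against 6 to 9 without any other 1 library, and 0 with glmTreat. These families hold similar copies, so short reads that fit several of them may be lost from the counts, since only unique reads were kept.

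Odorant-binding proteins, small carriers of odorants and other ligands in antennal fluid, also differed on the positive side. 7 of 33 (21.2%) were called, all positive, against 5.49% of all genes, with a median of 0.42 (0.34 with the floor). 12 of the 33 had a called fall in *G9a* mutants, against 6.07% of all genes. *Obp99d* had 1.53 and 2.03 CPM in *trr* controls, 1.498 and 2.22 in knockdown, 13.5, 15.1 and 12.9 in *G9a* controls and 0.815, 0.113 and 0.379 in mutants. The *trr* groups overlapped, the mutants were the lowest libraries, and the difference was 5.09 ± 0.66 (adjusted p = 0.00121). *Obp99b* (2.60), *Obp56h* (2.06), *Obp99c* (1.996), *Obp19b* (1.09), *Obp56d* (0.85) and *Obp44a* (0.73) were the other 6. 3 were called without either knockdown replicate, 4 without *trr* control replicate 1, 6 to 8 without any other 1 library, and 3 with glmTreat.

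Immune and stress peptides were called in small numbers. Of 29 antimicrobial peptides and Bomanins 4 were called, all positive: the drosomycin-like *Drsl4* (2.47) and *Drsl5* (0.98), *BomS4* (1.81) and the attacin *AttD* (5.39). This share of 13.8% compares with 9.26% of all genes called, and 5.49% called on the positive side. *Drsl4* had 946 and 1141 CPM in *trr* controls, 719 and 724 in knockdown, 88.3, 97.7 and 113 in *G9a* controls and 15.0, 9.76 and 12.6 in mutants. It was lower in both altered genotypes, with a called effect in mutants only. *TotA* (1.65) and *TotC* (1.86), 2 of 4 measured Turandot stress peptides (50%, against 9.26% of all genes), were called with a fall in mutants. The counts were 1 peptide without *trr* control replicate 1 or either knockdown replicate, 7 without *G9a* mutant replicate 3, and 3 or 4 without any other 1 library. For Turandot they were 0 without *trr* control replicate 1, either knockdown replicate or *G9a* mutant replicate 2, and 1 without *G9a* control replicates 2 or 3 or mutant replicate 1. *Hsp67Bc* (-1.12) was the 1 heat shock protein gene of 22 called (4.55%, against 9.26% of all genes). It was not called with the replicate block in the *G9a* experiment (adjusted p = 0.0512), while *Hsp27* (0.76) was (0.0492). The count was 3 without *G9a* mutant replicate 3, 1 without *G9a* control replicate 3 or *trr* control replicate 2, and 0 without any other 1 library.

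Genes with a called difference and only the *G9a* effect called were led by 6 with far larger changes than any *trr* effect on them. *mthl8* (FBgn0052475), a Methuselah-like G protein-coupled receptor, had 3.45 and 3.10 CPM in *trr* controls, 2.36 and 2.82 in knockdown, 0.659, 0.547 and 0.583 in *G9a* controls and 24.3, 19.8 and 20.5 in mutants. *CG6026* had 1.92 and 0.805 CPM in *trr* controls, 0.974 and 1.31 in knockdown, 2.41, 2.92 and 4.71 in *G9a* controls and 76.5, 76.6 and 74.4 in mutants. Both rose in all 3 mutants with differences of -5.51 ± 0.26 for *mthl8* and -4.75 ± 0.50 for *CG6026* (edgeR adjusted p = 1.53e-06 and 0.000351). *CG13313* rose in mutants by 3.67 ± 0.53 on the log2 scale, from at most 0.547 CPM to between 3.90 and 5.45 CPM, but its difference of -3.79 (adjusted p = 0.026) lost its call without *trr* control replicate 2, either knockdown replicate or *G9a* mutant replicate 2 (adjusted p between 0.0587 and 0.259) and with glmTreat (0.0703).

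Among the falls, *CG12224* (FBgn0037974) was nearly silent in mutants. It had 6.60 and 6.52 CPM in *trr* controls, 7.98 and 6.99 in knockdown, 7.41, 8.61 and 7.63 in *G9a* controls and 0.0958, 0 and 0.0758 in mutants. The mutant libraries held 4 counts in all against 481 in the controls, a ratio of 146 (95% counting interval 56.7 to 539, which covers counting error only), and the difference had an adjusted p of 2.91e-05. *CG18547* and *CG3397*, the genes on either side of *CG12224* in the Release 6 gene order, fell in mutants too, and were named after their values were seen. *CG3397* had 16.5 and 15.5 CPM in *trr* controls, 16.5 and 18.0 in knockdown, 9.77, 7.70 and 8.94 in *G9a* controls and 0.0479, 0.225 and 0.341 in mutants, a ratio of 40.4 between *G9a* controls and mutants (counting interval 24.6 to 71.1), and the difference of effects had an interval of 4.55 to 6.32. *CG18547* had 21.8 and 20.9 CPM in *trr* controls, 13.3 and 12.0 in knockdown, 17.9, 15.8 and 19.2 in *G9a* controls and 4.12, 4.39 and 5.08 in mutants, a fall in both experiments that was larger in mutants. The next genes of the order were *CG10005*, under 1 CPM in every library, and *mfas*. The difference of *mfas* was 0.52 and its *G9a* effect -0.46, both not called for size. Beyond *mfas*, *Tk* was not called. *Ect3*, which overlaps *Tk*, was called in the difference (1.32, edgeR adjusted p = 0.00152), with a called fall in mutants (-1.31).

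*CG31157* and *Oatp33Eb*, an organic anion transporter gene, were high in *G9a* controls alone. *CG31157* had 4.50, 7.47 and 6.95 CPM there, at most 0.19 CPM in mutants and at most 0.199 CPM in the *trr* experiment, a ratio of 94.6 between *G9a* controls and mutants (counting interval 40.2 to 293). *Oatp33Eb*, which overlaps *CG5418*, had 7.57, 8.75 and 7.48 CPM in *G9a* controls, 0.0479, 0.0751 and 0.19 in mutants and at most 0.225 CPM in the *trr* experiment, a ratio of 73.6 (37.0 to 171). In both genes the *trr* libraries were near the counting floor, so a *trr* effect could hardly be seen. Without knockdown replicate 2 the difference of *CG31157* was not called (adjusted p = 0.0658).

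Genes with a called difference and only the *trr* effect called were 159, with 45 rises and 114 falls. *CG14756* (FBgn0033275), which overlaps *LRP1*, had 0 counts in both *trr* controls, 4.61 and 3.77 CPM in knockdown, 0.439, 4.65 and 0.389 CPM in *G9a* controls and 0.479, 0.263 and 0.303 in mutants. It was at least 36.4-fold higher in knockdown than a floor of 3 counts per library, and *G9a* control replicate 2 was as high as the knockdown libraries. Its *trr* effect was not called without any 1 of the *trr* libraries or of *G9a* mutant replicates 1 and 2 (adjusted p between 0.0513 and 0.255). *Cpr65Ea* (FBgn0035735), a cuticle protein gene, had 7.60 and 9.17 CPM in knockdown and 0 and 0.0383 in *trr* controls, 434 counts against 1, and at most 0.549 CPM in the *G9a* experiment (adjusted p of the difference = 0.0077), and its *trr* effect was not called without *trr* control replicate 1 or either knockdown replicate (adjusted p between 0.128 and 0.181). *Dnaaf3*, which acts in the assembly of axonemal dyneins, had 7.19 and 7.07 CPM in knockdown, 0.268 and 0 in *trr* controls and at most 1.31 CPM in the *G9a* experiment, a ratio of 53.1 (counting interval 25.5 to 133). The difference of *Dnaaf3* was not called without either knockdown replicate (adjusted p = 0.078 and 0.0685).

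In the falls of this class the *trr* controls were uneven. In 109 of the 114 genes *trr* control replicate 1 was above *trr* control replicate 2, by a median of 0.47 on the log2 scale, against 0.00 over all genes, and the part of this gap in the falls was not tested. The class of 159 held 18 genes without *trr* control replicate 1, 553 without *trr* control replicate 2, and 3 and 7 without knockdown replicates 1 and 2. *Blos2* (FBgn0036118), a subunit of the BLOC-1 complex of lysosome-related organelles, had 17.3 and 5.404 CPM in *trr* controls, 2.13 and 1.23 in knockdown, 14.6, 14.8 and 13.6 in *G9a* controls and 17.9, 11.6 and 14.0 in mutants. *CG32856* had 20.3 and 7.86 CPM in *trr* controls, 2.17 and 2.10 in knockdown, 8.29, 14.4 and 12.0 in *G9a* controls and 16.6, 9.05 and 12.97 in mutants. *Targ1* had 10.1 and 3.87 CPM in *trr* controls, 1.27 and 0.993 in knockdown, 5.49, 7.02 and 5.25 in *G9a* controls and 6.04, 6.12 and 5.08 in mutants. In all 3 genes the knockdown libraries were the lowest of the 10 and the *G9a* groups overlapped, with differences of -2.76 ± 0.59, -2.86 ± 0.56 and -2.58 ± 0.50 (adjusted p = 0.0151, 0.0103 and 0.0103). The differences of *Blos2*, *CG32856* and *Targ1* were not called without either knockdown replicate (adjusted p between 0.0526 and 0.0947), nor their *trr* effects without *trr* control replicate 1 (0.067 to 0.13), and each gene overlaps another.

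Mitochondrial ribosomal proteins stood on the negative side. 13 of 70 (18.6%) were called, all negative, against 3.77% of all genes, with a median of -0.40. 5 of the 70 had a called fall in *trr* knockdown, against 1.31% of all genes. 2 had a called rise in *G9a* mutants, a share near the 2.46% of all genes. With the replicate block in the *G9a* experiment 10 of the 70 differences were called, and *mRpL9*, *mRpL11*, *mRpL15* and *mRpL50* lost their call (adjusted p between 0.0526 and 0.0694). *mRpL54* had 15.8 and 8.59 CPM in *trr* controls, 3.22 and 3.69 in knockdown, 10.4, 14.3 and 15.4 in *G9a* controls and 20.5, 21.4 and 17.7 in mutants. Here the knockdown libraries were the lowest and the mutants the highest, with a difference of -2.39 ± 0.36 (adjusted p = 0.00251). *mRpS18A* (-2.06), *mRpL17* (-1.96), *mRpL24* (-1.86) and *mRpS11* (-1.29) followed. *trr* control replicate 1 was above replicate 2 in 12 of the 13, by a median of 0.47. The count was 2 and 3 without knockdown replicates 1 and 2, 5 without *trr* control replicate 1, 4 to 7 without *G9a* control replicates 1 to 3 or mutant replicates 1 or 2, 11 without *G9a* mutant replicate 3, 17 without *trr* control replicate 2, and 2 with glmTreat. Cytosolic ribosomal proteins had 3 of 86 called, *RpL10Ab* (-2.19) and *RpL7* (-0.68) on the negative and *RpS5b* (3.72) on the positive side, with a median of 0.00. Their share of 3.49% was under the 9.26% of all genes. *RpL10Ab* had 1184 and 710 CPM in *trr* controls, 167 and 204 in knockdown and 515 to 718 in the *G9a* experiment, and without *trr* control replicate 2 the list had 7 calls.

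Cuticle proteins had called effects from each experiment. 21 of 102 were called (20.6%, against 9.26% of all genes), 19 positive and 2 negative, with a median of 1.33 (0.96 with the floor). 10 of the 102 had a called rise in *trr* knockdown, against 0.606% of all genes, and 1 a called fall. 14 had a called fall in *G9a* mutants, against 6.07% of all genes, and 5 a called rise, and *Acp1* alone combined a rise in knockdown with a fall in mutants. *Cpr49Ae* had 81.4 and 87.2 CPM in *trr* controls, 258 and 252 in knockdown, 146, 161 and 156 in *G9a* controls and 130.0, 106 and 120.4 in mutants. Its difference of 1.97 ± 0.15 (adjusted p = 3.57e-05) came mostly from the knockdown, although the mutants also lay under their controls. *Cpr11B* had 11.6 and 17.0 CPM in *trr* controls, 14.2 and 12.6 in knockdown, 88.9, 85.5 and 79.5 in *G9a* controls and 22.2, 17.5 and 23.1 in mutants, a difference of 1.93 ± 0.24 (adjusted p = 0.001) that came from the mutants. *Acp1*, adult cuticle protein 1, had 8.44 and 8.24 CPM in *trr* controls, 16.9 and 18.3 in knockdown, 879, 686 and 923 in *G9a* controls and 371, 262 and 341 in mutants. *TwdlD* and *TwdlM*, of the Tweedle family, had 3.15 to 8.38 CPM in knockdown, at most 0.23 CPM in the other *trr* libraries and at most 0.243 CPM in the *G9a* experiment. 10 members were called without either knockdown replicate, 18 to 21 without any other 1 library, and 10 with glmTreat.

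**Figure D4:**
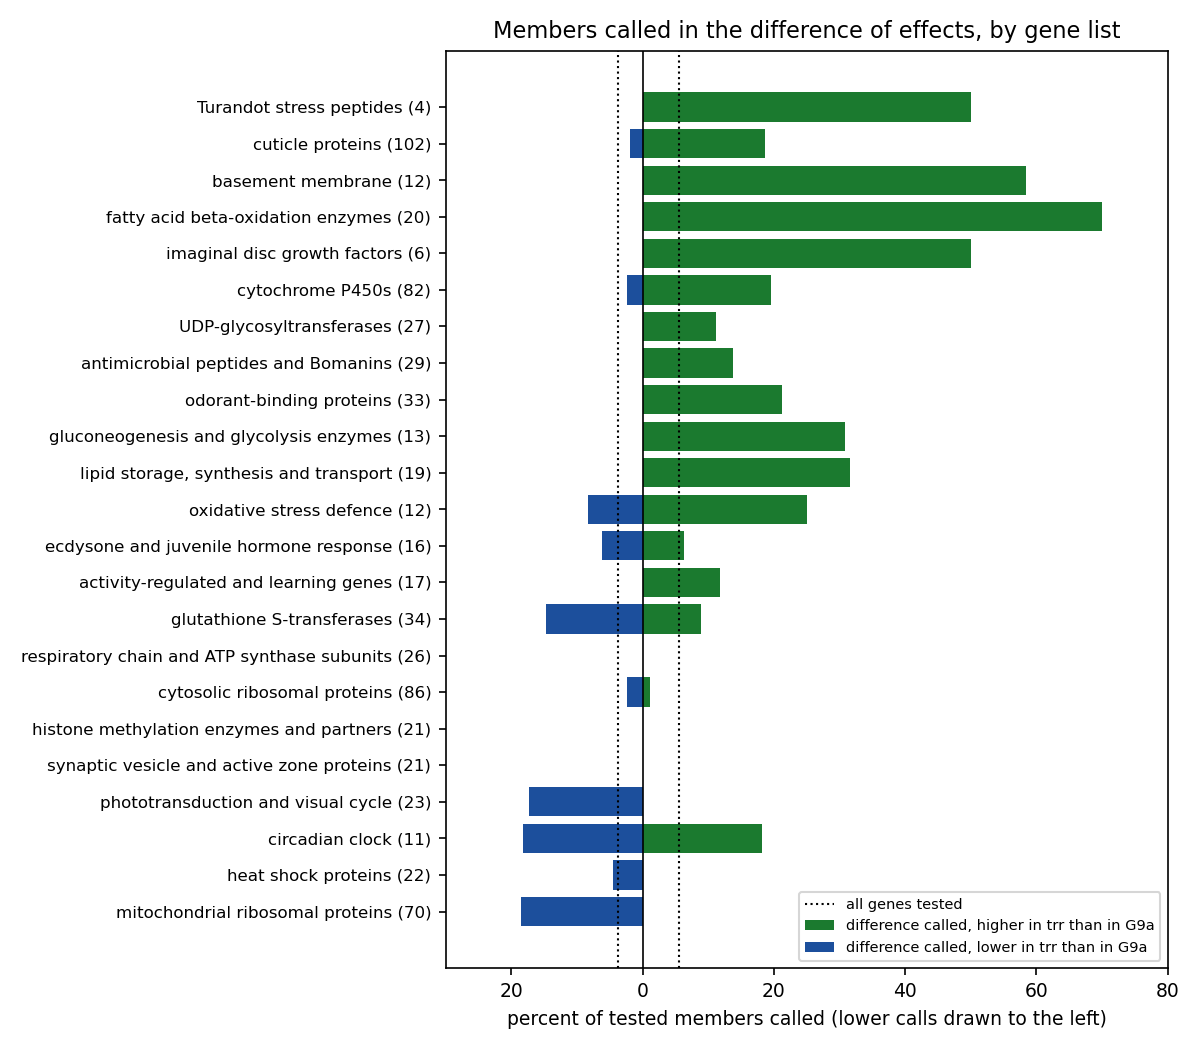
Share of tested members called in the difference, in percent on the horizontal axis, for 23 gene lists with the number of tested members in brackets; bars to the right are members called higher in *trr* than in *G9a*, bars to the left members called lower, and the dotted lines mark all genes tested (5.49% and 3.77%). Beta-oxidation (70%) and basement membrane (58.3%) extend furthest to the right, and mitochondrial ribosomal proteins (18.6%) furthest to the left; lists of 4 to 6 members have coarse shares.

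Genes of vision were called in the opposite direction to the metabolic lists, and clock genes in both. Of 23 phototransduction and visual cycle genes 4 were called (17.4%), all negative, against 3.77% of all genes. They were *ninaG* (-1.39) and *ninaB* (-0.97), enzymes that make the rhodopsin chromophore, the rhodopsin *Rh5* (-1.15) and *Arr1* (-0.68), the arrestin. *Rh5* had 478 and 458 CPM in *trr* controls, 388 and 416 in knockdown, 284, 302 and 326 in *G9a* controls and 592, 549 and 601 in mutants. *ninaG* had both effects called, -0.80 and 0.59. The photoreceptor markers summed to 84226 and 98637 CPM in *trr* controls, 90626 and 89320 in knockdown, 55959 to 62417 in *G9a* controls and 77445 to 80237 in mutants, and of the 8 markers only *Arr1* was called. Without knockdown replicate 1 or 2 the count was 2, and 3 to 6 without any other 1 library, and 2 with glmTreat. The part of the photoreceptor share in these calls was not tested. Of 11 clock genes *tim* (-1.04) and *cyc* (-0.88) were called on the negative and *cwo* (0.59) and *to* (3.01) on the positive side. That was 36.4%, against 9.26% of all genes. *cwo* was not called with the replicate block in the *G9a* experiment (adjusted p = 0.0512), while *Pdf* (-0.75) was (0.00564). *tim*, the timeless partner of period, had 792 and 892 CPM in *trr* controls, 707 and 719.6 in knockdown, 199, 204 and 173 in *G9a* controls and 314, 374 and 313 in mutants. The time of day of freezing is not given in the sources used here, and 2 or 3 of the 11 were called without any 1 library.

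Several lists close to the known roles of the 2 enzymes had few or no called members. Of 21 synaptic vesicle and active zone genes 0 were called by edgeR, DESeq2 or voom, 5 had an unadjusted p under 0.05 in edgeR, and 2 of these, *VGAT* (-0.53) and *nSyb* (-0.49), passed the adjusted p but not 1.5-fold. Of 21 histone methylation enzymes and partners 0 were called by the same 3 tools, 1 had an unadjusted p under 0.05, and differences lay between -0.45 and 0.16. Neither statement shows that these genes respond alike, since the median standard error of a difference was 0.28. Of 17 activity-regulated and learning genes *Arc1* and *nej* (0.65), the CBP acetyltransferase, were called, and of 16 ecdysone and juvenile hormone genes *tai* (0.73), a co-activator of the ecdysone receptor, and *MsrA* (-0.66). These shares were close to the 9.26% of all genes. For the learning list 1 to 3 were called without any 1 library, and for the hormone list 0 without knockdown replicate 1, 1 without knockdown replicate 2 or *trr* control replicate 1, and 2 or 3 otherwise.

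In oxidative stress defence 4 of 12 were called (33.3%, against 9.26% of all genes). Catalase *Cat* (0.85), the transcription factor *cnc* (0.79) and its inhibitor *Keap1* (0.64) were on the positive side and the peroxiredoxin *Prx3* (-0.65) on the negative. *Keap1* was not called with the replicate block in the *G9a* experiment (adjusted p = 0.0622). Without knockdown replicates 1 and 2 the count was 0 and 1, and 2 or 3 without any other 1 library. Of the UDP-glycosyltransferases 3 of 27 were called (11.1%, near the 9.26% of all genes). These were *Ugt37B1* (4.85), *Ugt35C1* (3.06) and *Ugt37D1* (0.90), each with a fall in mutants. Without *G9a* mutant replicate 1, 7 of 27 were called, and 6 with DESeq2 or voom. Of 6 imaginal disc growth factors *Idgf5* (1.73), *Idgf1* (1.41) and *Idgf4* (0.61) were called (50%, against 9.26% of all genes). 1 was left without *G9a* control replicate 3 or mutant replicate 2, and the list also lost calls without either knockdown replicate. *Idgf2* had a called fall in both experiments, and its difference of -0.25 was not called.

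Genes with both effects called in the same direction were 27 (0.21%), 3 higher and 24 lower in both. For 22 of them the difference was not called, and the *G9a* effect was the larger in 20. *Cyp4e3* (FBgn0015035), a cytochrome P450, fell most. It had 246 and 129 CPM in *trr* controls, 29.5 and 24.8 in knockdown, 37.8, 38.8 and 40.8 in *G9a* controls and 4.50, 5.86 and 2.92 in mutants. Effects were -2.79 ± 0.31 and -3.14 ± 0.27, and the difference of 0.35 had a 95% interval of -0.51 to 1.22. *CG9689* had 63.6 and 25.3 CPM in *trr* controls, 9.47 and 11.8 in knockdown, 104, 94.7 and 87.8 in *G9a* controls and 36.9, 22.8 and 22.1 in mutants, with a difference of -0.25 (-1.30 to 0.80). *CG32695* had 29.0 and 21.9 CPM in *trr* controls, 7.38 and 11.1 in knockdown, 14.8, 13.4 and 17.0 in *G9a* controls and 3.79, 3.27 and 3.94 in mutants, with a difference of 0.57 (-0.05 to 1.1998). These 3 intervals include 0 but also differences of more than 1.5-fold, and the *trr* effects were not called without either knockdown replicate. Those of *CG9689* and *CG32695* were also not called without *trr* control replicate 1 (effects -1.25 and -1.25). That of *CG9689* was not called without *G9a* control replicate 2 either (edgeR adjusted p = 0.0547).

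Of the genes that rose in both, *CG9377* had 17.9 and 21.5 CPM in *trr* controls, 42.3 and 37.4 in knockdown, 21.7, 18.5 and 15.2 in *G9a* controls and 92.5, 66.9 and 64.1 in mutants. *wisp*, which encodes the cytoplasmic poly(A) polymerase of the oocyte, had 2.26 and 1.99 CPM in *trr* controls, 10.1 and 11.8 in knockdown, 0.933, 1.28 and 1.02 in *G9a* controls and 2.25, 1.80 and 1.67 in mutants. *wisp* rose more in knockdown (2.36) than in mutants (0.82), with a difference of 1.55 (adjusted p = 0.0198), and *CG9377* more in mutants, with -0.995 (adjusted p = 0.0414). With the replicate block in the *G9a* experiment the *G9a* effect of *wisp* had an adjusted p of 0.0509. It was also not called with DESeq2 (0.0638) or voom (0.144), or without any 1 of *G9a* control replicates 1 and 3, mutant replicates 1 and 2 and both knockdown replicates (0.0723 to 0.104). The differences of both genes lost their call without some of the *trr* libraries. The *trr* effects of both genes were not called without either knockdown replicate. That of *CG9377* was also not called without *trr* control replicate 1 (effect 0.89), *G9a* control replicate 2 (adjusted p = 0.0718) or mutant replicate 2 (0.0508). For the difference of *wisp* the libraries were *trr* control replicate 1 and both knockdown replicates (adjusted p between 0.0511 and 0.136), and for *CG9377* any of these, *trr* control replicate 2, *G9a* control replicates 2 or 3 or mutant replicate 1 (0.0568 to 0.161). *Ccp84Ag*, a cuticle protein gene, had 13.04 and 11.7 CPM in *trr* controls, 21.6 and 20.5 in knockdown, 10.3, 8.48 and 8.60 in *G9a* controls and 26.5, 20.5 and 25.5 in mutants, with a difference of -0.63 (-1.10 to -0.16) that was not called (adjusted p = 0.0897) except without *G9a* mutant replicate 2 (0.0498). The *trr* effect of *Ccp84Ag* was not called without any 1 of the *trr* libraries (adjusted p between 0.07 and 0.429), without *G9a* control replicates 2 or 3 or mutant replicate 1 (0.0534 to 0.0712), or with the share of reads outside genes as covariate (0.058).

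*Acer* and *Reg-2*, also named by the study for both losses, were lower in both altered genotypes. *Acer*, related to angiotensin-converting enzyme, had 246 and 155 CPM in *trr* controls, 106 and 110.4 in knockdown, 90.1, 89.8 and 93.4 in *G9a* controls and 42.6, 43.1 and 38.7 in mutants. Its effects were -0.88 and -1.13, both called, and its difference was 0.25 (-0.25 to 0.75), which was called without *trr* control replicate 1 (adjusted p = 0.0301). With the replicate block in the *G9a* experiment the *trr* effect of *Acer* had an adjusted p of 0.0506, and it was also not called without any 1 of the *trr* libraries but control replicate 2, or of *G9a* control replicates 2 or 3 and mutant replicates 1 or 2. *Reg-2* had 30.4 and 23.3 CPM in *trr* controls, 16.1 and 16.6 in knockdown, 22.7, 27.9 and 32.7 in *G9a* controls and 12.1, 12.3 and 12.6 in mutants. Its *trr* effect of -0.72 was not called (adjusted p = 0.074) although the groups did not overlap, its *G9a* effect of -1.17 was (adjusted p = 0.000473), and the difference was 0.45 (-0.06 to 0.97).

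Other genes that fell in both, named after their values were seen, included *HipHop*, which protects chromosome ends, *Ku80* of DNA repair, and *Pepck2*. *HipHop* had 14.9 and 9.96 CPM in *trr* controls, 4.98 and 4.73 in knockdown, 15.5, 16.7 and 14.9 in *G9a* controls and 5.61, 5.07 and 4.55 in mutants. *Ku80* had 10.5 and 10.1 CPM in *trr* controls, 5.43 and 5.12 in knockdown, 15.4, 18.3 and 14.8 in *G9a* controls and 6.95, 9.01 and 8.45 in mutants. In both genes all altered libraries lay under all controls of their own experiment, and the differences were 0.27 (-0.29 to 0.83) for *HipHop* and 0.02 (-0.47 to 0.50) for *Ku80*. *Pepck2*, the mitochondrial partner of *Pepck1*, had 14.9 and 10.2 CPM in *trr* controls, 5.17 and 5.64 in knockdown, 42.9, 42.7 and 36.1 in *G9a* controls and 5.85, 5.15 and 4.59 in mutants, and fell more in mutants, by a difference of 1.76 (adjusted p = 0.0022). Both effects of the same direction were called for 0 genes without either knockdown replicate by edgeR and for 2 without *trr* control replicate 1, but for 49 with DESeq2 on all libraries.

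**Figure D5:**
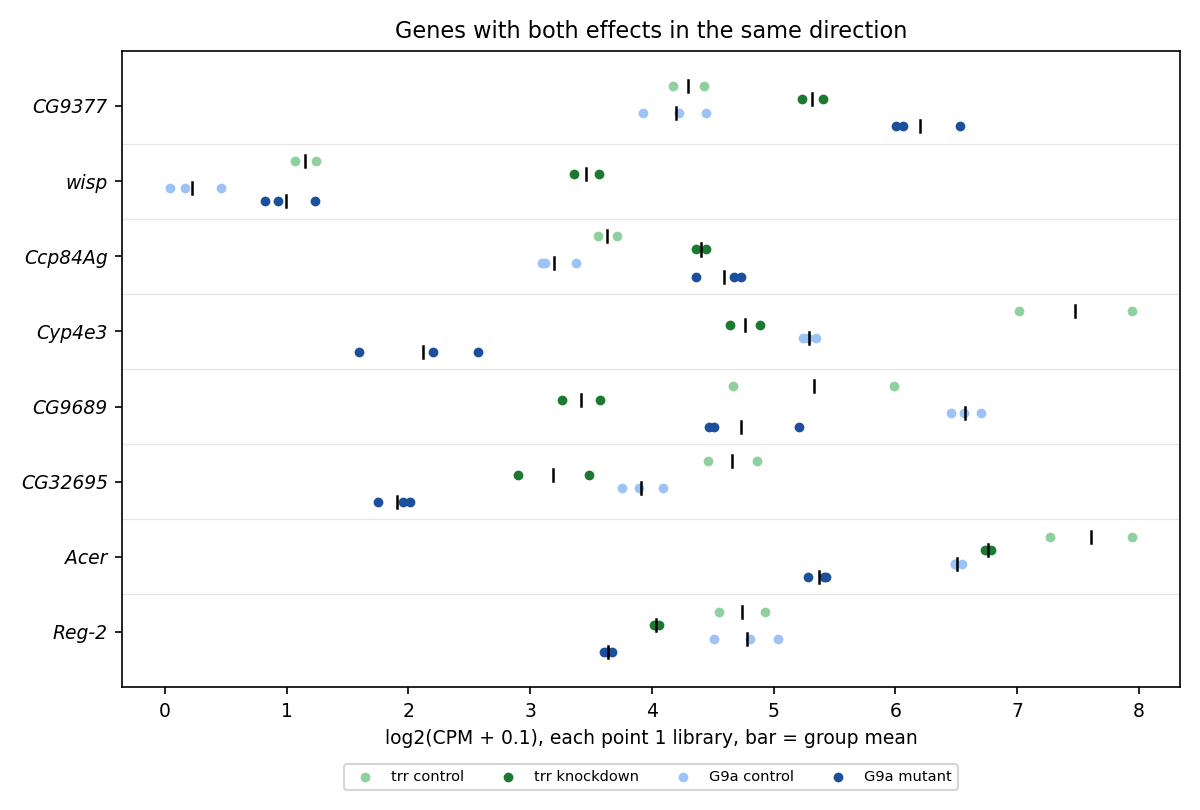
Levels of 8 genes that moved in the same direction in both experiments, as log2(CPM + 0.1) on the horizontal axis, 1 gene per band, 1 point per library coloured by group, with a bar at the group mean. In *CG9377*, *wisp* and *Ccp84Ag* the knockdown and mutant libraries lie right of their own controls, and in the lower 5 genes, from *Cyp4e3* to *Reg-2*, left of them. Genes from *CG9377* to *CG32695* were picked with separate groups in both experiments.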

How the data were processed

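Polyadenylated RNA from pooled heads was sequenced in the 10 libraries used here. The authors aligned 36-base reads with BWA 0.6.1 to dm3, kept unique reads with at most 1 mismatch and made the deposited counts, raw whole-number counts per gene, with HTSeq on the BDGP5 annotation. Reads that HTSeq could not assign to only 1 gene, 1.58% to 2.55% per library, were set aside as ambiguous and not counted for any gene. The strand setting is not given in the sources used here. Reads of an overlapping gene may thus be counted for the other where only the other has an exon. The other 3 samples are chromatin immunoprecipitation or input libraries and were not used, nor was the peak list made from them.

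The 5 summary lines of each file were dropped. Their share of reads outside genes is given with the results. Genes with at least 10 summed counts were kept, and TMM normalization and the quasi-likelihood F-test of edgeR 4.0.16 (R 4.3.3) were run on 1 design of 4 groups, with the difference of both effects as a contrast. P-values were adjusted by Benjamini-Hochberg over all 12871 genes. A gene was called at an adjusted p under 0.05 and a change over 1.5-fold. Standard errors were taken from the fold change and its F statistic. Groups with few counts were given a floor of 3 counts per library or a ratio with its exact 95% interval, which cover counting error only. The labels call the libraries biological replicates, and p-values measure the spread between them. In simulated data with 200 genes changed 4-fold among 12871, 189 were recovered and 10 of 199 calls were false. The changed genes were drawn from those with higher counts, and the libraries were simulated as independent. The recovery thus does not cover genes with few counts or smaller changes. Neither rate covers libraries that are uneven across many genes.

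The members and gene lists were chosen with earlier results of these data known. Named genes averaged 100 counts or more across the libraries of at least 1 group and had separate CPM ranges for each called effect. They were the 6 largest differences in each direction among opposite genes, the 3 largest in each direction by the called effect among genes with only 1 called, the 3 highest and lowest, by the smaller effect, among genes that moved alike, the targets, *PCB*, *mTTF*, *Acer*, *Reg-2* and *Arc1*, and list members. Genes outside this rule are marked as chosen after their values were seen. Symbols, overlaps and gene order came from Release 6 tables, which named 15002 of 15682 genes. List members with no match in the table were not analysed here. 1 member of the beta-oxidation list is counted but not reported here.

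Same-numbered *G9a* control and mutant libraries deviated together (r = 0.24, 0.17 and 0.42 across genes), with no named shared batch. So did control 1 with mutant 2 (0.21) and control 2 with mutant 1 (0.13). Pairs of replicate 3 with another number had r between -0.33 and -0.19, so only replicate 3 was set apart by its number. Same-numbered *G9a* libraries were treated as paired in an alternative. Same-numbered *trr* libraries did not deviate together (r = -0.05). Other alternatives were DESeq2 1.42.0, limma 3.58.1 voom, RLE normalization, other filters, edgeR's glmTreat against 1.5-fold, the share of reads outside genes as covariate, and leaving out each library.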

Additional observations from a re-analysis of the deposited data

Results flagged for a closer look

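The *trr* and *G9a* effects differed, by the test of the difference itself in edgeR, for 1192 genes, and 35 genes had both effects called in opposite directions. Of the 35, 26 rose in *trr* knockdown and fell in *G9a* mutants. The 2 experiments differ in genetic background, driver and batch as well as in the gene lost, and these cannot be told apart.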

How the results depend on the processing

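None of the 1192 called genes changed sign in any alternative, and 1098 to 1192 kept a difference over 1.5-fold in the same direction. The stricter glmTreat test used the fold changes of the main fit, so no sign or size could change there. It left 323 calls, 236 positive and 87 negative. Among them were 2 opposite genes, 10 with only the *trr* effect, 207 with only the *G9a* effect and 104 with neither. 1 gene had both effects called in the same direction. DESeq2 called 1516 genes, with 59 opposite, 297 with only the *trr* effect and 49 in the same direction. With the share of reads outside genes as covariate, 99 genes had only the *trr* effect and 17 moved in the same direction. With the adjusted p alone, 246 genes had neither effect called. Without 1 library the calls ranged from 377 (*trr* knockdown replicate 1) to 1596 (*trr* control replicate 2), the positive calls from 286 to 767, the negative from 91 to 829, opposite genes from 2 to 64, genes with only the *trr* effect from 3 to 553, with only the *G9a* effect from 298 to 621, with neither from 74 to 475, and genes with both in the same direction from 0 to 84. With the replicate block in the *G9a* experiment there were 1276 calls, 790 positive and 486 negative, and 45 opposite genes. With the block in both experiments there were 1105 calls, although the *trr* numbers do not pair the libraries. Calls of named genes lost with the block in the *G9a* experiment are given beside the genes. RLE normalization, other filters and the adjusted p alone changed none of the 94 results on named genes, and the *trr* knockdown libraries changed most, 36 and 37 of them when left out. The *trr* groups hold 2 libraries each, so each *trr* effect rests on 4 libraries, and the median standard error of a difference was 0.28.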

Other observations

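The 419 genes with a called difference but neither effect called were split evenly, 197 positive and 222 negative. Their median size was 0.81 on the log2 scale, against 2.20 for the 35 opposite genes. An opposite gene needs 2 called effects over 1.5-fold, so its larger size follows in part from the definition. By chromosome the share of genes called was lowest on X (8.54%) and highest on 2L (10.1%) among the large chromosome arms, with 9.25% for 2R, 9.21% for 3L and 9.66% for 3R. On chromosome 4, which is largely heterochromatic, 4 of 90 genes (4.44%) were called, all of them negative. The astrocyte gene *alrm* fell in *G9a* mutants and not in *trr* knockdown. It had 96.0 and 91.9 CPM in *trr* controls, 89.8 and 96.8 in knockdown, 47.3, 36.6 and 34.7 in *G9a* controls and 16.3, 11.3 and 10.99 in mutants. Its difference of 1.61 (edgeR adjusted p = 0.0032) was the largest of 7 glial markers, which ranged down to -0.21, with 5 positive and 2 negative. *moody* (0.66) was the other one called, so 28.6% were called, against 9.26% of all genes. Only 1 of the 7 had a called fall in mutants. The 7 markers summed to 1965 to 2366 CPM in *G9a* controls and 1834 to 2041 in mutants, which overlapped. The part of glia in the results was not tested.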
